A study of Mus musculus with 203 samples.

Results

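The smoke effect under dexamethasone was described in lung parenchyma, the gas-exchanging tissue left once the airways have been dissected away, from the 10 libraries labelled PBS.CS.DEX and the 10 labelled PBS.AIR.DEX at 11 weeks. These 20 libraries were chosen by their labels and are 9.85% of the series. All came from female Balb/C mice of 18-20 weeks. In both groups phosphate buffered saline (PBS) stood in for house dust mite (HDM) extract, which other mice of the series received intranasally on 5 days per week for 3 weeks and then 3 times per week from week 4 to 11. The CS.DEX mice breathed cigarette smoke 2 times per day on 5 days per week for 8 weeks, and the AIR.DEX mice breathed normal air. Both groups were treated with dexamethasone (DEX), a synthetic glucocorticoid, during week 11, so the comparison measures smoke among mice that had all received the steroid, and smoke exposure began in week 4, before it. The dose and route of DEX at 11 weeks are not given in the sources used here. Tissues were separated by blunt dissection, and no label pairs an airway library with a parenchyma library of the same mouse.

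Cigarette smoke brings polycyclic aromatic hydrocarbons that bind the aryl hydrocarbon receptor (AhR) and oxidants that release the transcription factor NRF2, and in mice it fills the air spaces with macrophages and neutrophils drawn in by chemokines. Dexamethasone binds the glucocorticoid receptor, which switches on genes such as Tsc22d3 and Fkbp5 and holds back much inflammatory transcription. Smoke-driven lung inflammation is known for a poor response to glucocorticoids.

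The authors deposited estimated counts per gene. The total count per library ran from 24329279 to 33869244 (median 28313244) in AIR.DEX and from 23287651 to 37681918 (median 27731470) in CS.DEX. Levels are given below as CPM, the counts divided by the library size after TMM scaling, as the lowest, median and highest of the 10 libraries of a group. They are not corrected for gene length, so a gene is compared between groups and not with other genes. Alveolar genes were high in every library. Sftpc, the surfactant protein of alveolar type II cells, lay between 11280 and 25310 CPM, and Ager, a marker of type I cells, between 2496 and 3837 CPM. Skeletal muscle, cartilage and fat genes were near 0, with a summed level of at most 5.06 CPM for each of those lists in any library. Of the CS.DEX libraries, X116, X96 and X176 had the lowest correlations with the median of the rest of their group (0.9887, 0.9895 and 0.9915), against at least 0.9933 for the other CS.DEX and 0.9938 for the AIR.DEX libraries. The library codes run in the order of the accessions and the labels do not say what they mark, but several genes differed between code ranges within a group, as given below. P-values rest on the spread between libraries within a group, pooled per gene over all 16 groups at 11 weeks. These groups include airway, HDM and mice without DEX, so it is not the spread of CS.DEX and AIR.DEX alone.

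Of 18250 genes tested, 360 (1.97%) were upregulated in CS.DEX compared to AIR.DEX and 150 (0.822%) were downregulated, at an adjusted p-value under 0.05 in limma-voom and a log2FC no smaller in size than 1. Without the limit on log2FC, 1701 genes (9.32%) were higher and 1629 (8.93%) lower. The median log2FC of all genes tested was -0.01. The 10 CS.DEX libraries lay entirely above the 10 AIR.DEX libraries for 288 genes (1.58%) and entirely below for 140 (0.767%). Of the upregulated genes 40% had no overlap between the groups, and of the downregulated genes 14%. Because the tissue is bulk, fewer cells of a type and less RNA per cell cannot be told apart in any of these values.

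By fitted log2FC the largest rise without overlap was that of Spink5, which encodes a serine protease inhibitor of stratified epithelium. It ranged from 0 to 0.25 CPM (median 0.0541) in AIR.DEX and from 1.07 to 3.13 CPM (median 1.97) in CS.DEX, a log2FC of 4.77 ± 0.45 (SE, adjusted p = 1.09e-16). Lemd1, a LEM domain gene on chromosome 1 of mm10 from 132191431 to 132259227, went from 0.208, 0.425 and 0.677 CPM in AIR.DEX to 6.93, 10.1 and 12.3 CPM in CS.DEX (log2FC 4.48 ± 0.31, adjusted p = 1.36e-25). For both genes the lowest smoke library was several times above the highest air library. Spink5 had 0 CPM in X68 and X128 of AIR.DEX, so its fitted log2FC depends on the prior count and its place above Lemd1 is not firm.

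Vnn1, whose product vanin-1 splits pantetheine into cysteamine and vitamin B5, had 11.3 to 19.7 CPM in AIR.DEX (median 13.1) and 100 to 194.2 CPM in CS.DEX (median 132.2), a log2FC of 3.33 ± 0.24 (adjusted p = 2.28e-25). Mab21l3 rose by a log2FC of 3.50 ± 0.35 (adjusted p = 4.98e-15), the P-type ATPase gene Atp13a5 by 3.37 ± 0.59 (adjusted p = 5.21e-06) and the dicarboxylate transporter gene Slc13a3 by 3.15 ± 0.30 (adjusted p = 1.75e-16). In each of these the groups did not overlap. The remaining members of the leading rises, Saa3, Orm1, Orm2 and Saa4, are acute phase genes. Saa4 had at most 1 count in any AIR.DEX library and as few as 1 in a CS.DEX library. Its lack of overlap therefore rests on the scaling by library size. Its fitted log2FC (3.50) depends on the prior count and its place in this order is not firm.

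The downregulated genes without overlap were smaller in effect and lower in level. Avpr1a, the vasopressin V1a receptor gene on chromosome 10, had 0.84, 1.39 and 2.12 CPM in AIR.DEX and 0.0722, 0.152 and 0.468 CPM in CS.DEX (log2FC -3.07 ± 0.47, adjusted p = 9.96e-08). Bcan, which encodes the matrix proteoglycan brevican, had 2.29, 2.83 and 3.44 CPM in AIR.DEX and 0.325, 0.57 and 1.23 CPM in CS.DEX (log2FC -2.25 ± 0.26, adjusted p = 1.73e-12). For neither gene did any smoke library reach the lowest air library. A further 7 falls without overlap lay between a log2FC of -1.89 and -1.40. They were Glb1l3, the asialoglycoprotein receptor subunit gene Asgr1, the cystatin gene Cst8, the ciliary neurotrophic factor receptor gene Cntfr, the retinol binding protein gene Rbp7, Gm2115 and Prdm8.

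**Figure D1:**
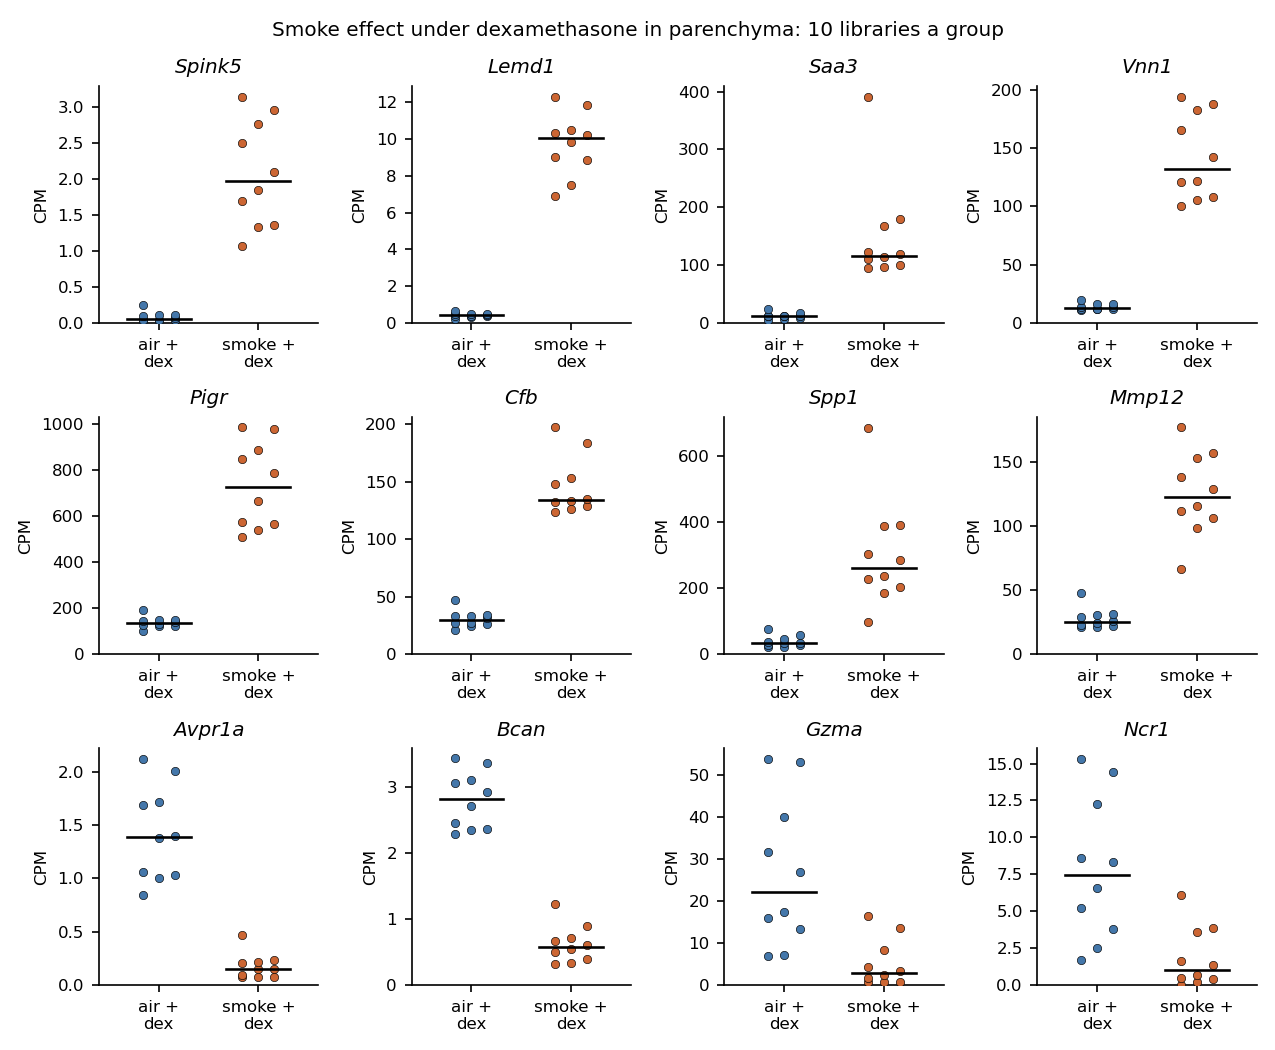
Each point is 1 library, with TMM-scaled CPM on a linear axis that starts at 0, AIR.DEX in blue and CS.DEX in orange, and the bar at the median of 10 libraries. In the panels of the rising genes and of Avpr1a and Bcan the groups do not overlap, while Gzma and Ncr1 are lower in CS.DEX with overlap, and the single highest Saa3 point (390 CPM) is library X116.

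Genes of the AhR pathway were upregulated in part. Of 8 tested members 4 were called higher and none lower (background 1.97% and 0.822% of all genes), with a median log2FC of 0.93. The same background applies to the calls in every list below. Ahrr, the repressor that AhR itself induces, had 0.0764, 0.236 and 0.458 CPM in AIR.DEX and 1.26, 1.59 and 2.16 CPM in CS.DEX (log2FC 2.73 ± 0.30, adjusted p = 1.43e-13). Cyp1b1, a cytochrome P450 that oxidizes polycyclic hydrocarbons, had 5.77, 7.44 and 10.2 CPM in AIR.DEX and 17.7, 23.9 and 40.1 CPM in CS.DEX (log2FC 1.69 ± 0.21, adjusted p = 7.34e-11). Neither gene overlapped between the groups. Ugt1a6a, a glucuronosyltransferase gene that shares exons with its neighbours and is therefore uncertain, rose by a log2FC of 1.16 ± 0.14 (adjusted p = 5.57e-11), also without overlap.

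Cyp1a1, the classic AhR target, behaved otherwise. It had 8.13, 19.1 and 34.2 CPM in AIR.DEX and 12.5 to 662 CPM in CS.DEX, with the median between its libraries at 102.8 and 131.2 CPM (log2FC 2.68 ± 0.56, adjusted p = 1.47e-04). Only 7 of the 10 smoke libraries lay above every air library, and those that did not were the 3 with codes from X61 to X120. The smoke libraries ran from 100 to 131.2 CPM up to X60, from 12.5 to 27 CPM from X61 to X120 and from 271 to 662 CPM above X120, while the air libraries in those ranges ran from 17.3 to 25.2, from 21.5 to 34.2 and from 8.13 to 18.8 CPM. The log2FC within the 3 ranges was therefore 2.44, -0.41 and 5.16. Ahrr, by contrast, had values of 2.53, 2.94 and 2.73 and Cyp1b1 of 2.12, 1.41 and 1.6. Whether the code ranges mark a day, a group of mice or anything else was not tested.

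The receptor itself was slightly lower. Ahr had 95.4, 131.1 and 145.7 CPM in AIR.DEX and 86.4, 108.5 and 123.6 CPM in CS.DEX (log2FC -0.26 ± 0.09, adjusted p = 0.0357), but the groups overlapped and the call was lost without any 1 of 9 libraries. Its partner Arnt had a log2FC of 0.04, Tiparp of 0.14 and Aldh3a1 of 0.71, and none of these passed (adjusted p from 0.0864 to 0.708). Aldh3a1 passed with edgeR (log2FC 0.82, adjusted p = 0.027).

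The promoters of the 3 AhR targets with the largest rises are shown because the core letters of the AhR and ARNT element, GCGTG, can be read in them. Each line is the 250 bases before the start of the gene, 5′ to 3′ on the gene's strand, from RefSeq on GRCm38.p6, with each GCGTG, or CACGC where the match is on the other strand, in capitals. The windows are chr13:74292332-74292581 on the minus strand for Ahrr, chr9:57697363-57697612 on the plus strand for Cyp1a1 and chr17:79715062-79715311 on the minus strand for Cyp1b1.
Ahrr: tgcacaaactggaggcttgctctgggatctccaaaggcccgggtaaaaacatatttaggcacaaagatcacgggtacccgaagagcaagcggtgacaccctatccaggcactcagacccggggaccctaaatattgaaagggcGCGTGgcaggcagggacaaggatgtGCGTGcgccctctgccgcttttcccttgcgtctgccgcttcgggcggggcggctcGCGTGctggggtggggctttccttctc
Cyp1a1: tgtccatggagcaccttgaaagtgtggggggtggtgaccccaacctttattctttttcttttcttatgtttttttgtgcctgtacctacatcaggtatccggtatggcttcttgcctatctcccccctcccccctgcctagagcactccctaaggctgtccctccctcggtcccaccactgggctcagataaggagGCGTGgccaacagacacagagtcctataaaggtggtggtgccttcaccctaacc
Cyp1b1: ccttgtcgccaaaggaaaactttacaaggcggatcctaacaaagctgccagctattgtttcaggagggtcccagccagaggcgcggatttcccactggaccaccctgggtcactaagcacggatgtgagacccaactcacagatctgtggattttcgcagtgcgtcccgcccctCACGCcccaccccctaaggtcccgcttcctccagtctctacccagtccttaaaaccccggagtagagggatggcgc
The letters occur 3 times before Ahrr and 1 time each before Cyp1a1 and Cyp1b1. A match on either strand was found in 5 of the 7 AhR pathway genes with a window and in 28.2% of all 32851 windows of this length, so a match is common and is a description only. Ahr and Aldh3a1 had no window, while Cyp1a2, too low to be tested for expression, had one. Cyp1a1 and Cyp1b1 share this feature and differ in how evenly they rose over the code ranges.

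Of 28 NRF2 antioxidant genes 2 were called higher and none lower (background 1.97% and 0.822%), with a median log2FC of 0.25. A positive log2FC passed for 12 and a negative one for 1 (background 9.32% and 8.93%), and 15 did not pass. Nqo1, the quinone reductase that is a standard readout of NRF2, had 3.51, 4.65 and 5.46 CPM in AIR.DEX and 7.51, 15.4 and 34.95 CPM in CS.DEX (log2FC 1.86 ± 0.41, adjusted p = 3.07e-04). Slc7a11, the cystine importer of glutathione synthesis, had 4.53, 4.89 and 8.06 CPM in AIR.DEX and 11.6, 21.5 and 26.4 CPM in CS.DEX (log2FC 1.98 ± 0.29, adjusted p = 2.42e-08). Neither gene overlapped between the groups. As with Cyp1a1, the smoke libraries of Nqo1 were lowest from X61 to X120 (7.51 to 10.4 CPM) and highest above X120 (21.95 to 34.95 CPM).

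Other members of the list that rose had a log2FC under 1. Txnrd1, thioredoxin reductase, had a log2FC of 0.40 ± 0.07 (adjusted p = 3.9e-06), Pgd of the pentose phosphate pathway 0.48 ± 0.09 (adjusted p = 5.08e-05) and G6pdx, its first enzyme, 0.41 ± 0.09 (adjusted p = 3.85e-04). In these 3 genes the groups did not overlap. Gclc, which makes the glutathione precursor, rose by a log2FC of 0.43 (adjusted p = 0.00364) and Gpx2 by 0.81 (adjusted p = 0.00909). Hmox1, heme oxygenase 1, had a log2FC of 0.57 (adjusted p = 0.0326) that no longer passed without any 1 of 6 libraries, with 1 smoke library reaching 197.8 CPM against a median of 64.5. Gsta2, a glutathione transferase gene of a family of close copies, was lower (log2FC -0.61, adjusted p = 0.0151). Nfe2l2, which encodes NRF2 itself, did not pass (log2FC 0.08, adjusted p = 0.511). The letters of the NRF2 element, TGANNNNGC, were found in 15 of the 23 genes of the list that had a window and in 35.2% of all windows.

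Most acute phase genes were upregulated. Of 15 members 11 were called higher and none lower, 12 passed with a positive log2FC, and the median log2FC was 1.5. Saa3, a serum amyloid A made in lung epithelium and macrophages, had 5.53, 12.3 and 23.7 CPM in AIR.DEX and 95.3, 116.2 and 390 CPM in CS.DEX (log2FC 3.56 ± 0.37, adjusted p = 2.5e-14). Without X116, which held the highest value, its log2FC was 3.39. Orm1 and Orm2, near-identical genes for the carrier protein alpha-1-acid glycoprotein, had log2FC values of 3.40 ± 0.45 and 3.81 ± 0.57, and Saa1 and Saa2, also near-identical, had 2.97 ± 0.57 and 2.17 ± 0.60. How reads were divided within these pairs is uncertain.

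Complement and iron-binding members were abundant in both groups. Cfb, complement factor B on chromosome 17 from 34856374 to 34862518, had 21.3, 29.3 and 46.8 CPM in AIR.DEX and 123.6, 134.1 and 197.4 CPM in CS.DEX (log2FC 2.28 ± 0.19, adjusted p = 1.71e-19). C3, the central complement protein, had 346, 400 and 458 CPM in AIR.DEX and 709, 884 and 1174 CPM in CS.DEX (log2FC 1.198 ± 0.11, adjusted p = 5.28e-18). Lcn2, a siderophore-binding lipocalin, had 215, 378 and 517 CPM in AIR.DEX and 1013, 1381 and 1716 CPM in CS.DEX (log2FC 1.92 ± 0.25, adjusted p = 5.92e-10). No smoke library of these genes fell within the range of the air libraries. Serpina3n (log2FC 1.5), the hemopexin gene Hpx (1.06) and the ceruloplasmin gene Cp (1.03) were called as well. Haptoglobin, Hp, was not (log2FC 0.20, adjusted p = 0.263), nor was Il6, the cytokine that drives acute phase genes in liver (log2FC 1.09 ± 0.48, adjusted p = 0.0993, at most 2.84 CPM).

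Pigr, the receptor that carries IgA and IgM across epithelium into the lumen, on chromosome 1 from 130826684 to 130852249, had 101.6, 136.8 and 190 CPM in AIR.DEX and 511, 727 and 988 CPM in CS.DEX. Its log2FC of 2.38 ± 0.14 (adjusted p = 4.28e-33) came with no overlap between the groups. Igha, the IgA heavy chain constant gene, rose with it, from 9.99, 16.7 and 24.5 CPM to 16.2, 40.2 and 70.7 CPM (log2FC 1.12 ± 0.28, adjusted p = 0.00145), and 8 of 10 smoke libraries lay above every air library. Jchain, which joins the units of IgA and IgM, had a log2FC of 0.79 (adjusted p = 0.0483) that no longer passed with edgeR (adjusted p = 0.0627) or DESeq2 (adjusted p = 0.0719), nor without any 1 of 13 libraries.

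Genes of lipid-laden macrophages, the foamy cells of smoke-exposed air spaces, were upregulated in part. Of 22 members 7 were called higher and none lower, 14 passed with a positive and 1 with a negative log2FC, and the median log2FC was 0.45. Spp1, osteopontin, had 21.4, 33.2 and 74.7 CPM in AIR.DEX and 97.3, 261 and 685 CPM in CS.DEX (log2FC 2.91 ± 0.28, adjusted p = 1.38e-16). Mmp12, macrophage elastase, had 21.4, 25.2 and 47.8 CPM in AIR.DEX and 66.3, 122.3 and 177.1 CPM in CS.DEX (log2FC 2.18 ± 0.25, adjusted p = 4.06e-12). Neither overlapped between the groups. Dcstamp of cell fusion (log2FC 2.40), the scavenger receptor Msr1 (1.87), the lipid sensor Trem2 (1.24), Apoe (1.18) and lipoprotein lipase, Lpl (1.01), were the other calls.

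Other members of the list passed with a log2FC under 1. Gpnmb, a lysosomal glycoprotein, had 204.5, 238 and 300 CPM in AIR.DEX and 254, 378 and 621 CPM in CS.DEX (log2FC 0.72 ± 0.24, adjusted p = 0.0256). Ctsk, cathepsin K, had 206, 289 and 430 CPM in AIR.DEX and 231, 527 and 682 CPM in CS.DEX (log2FC 0.70 ± 0.22, adjusted p = 0.0137). Cd68 had a log2FC of 0.46 ± 0.17 (adjusted p = 0.0367), and Cd36, a fatty acid carrier that endothelium also makes, was lower (log2FC -0.23, adjusted p = 0.0231), though not without X176 (adjusted p = 0.0919). The groups overlapped for all 4 genes. Gpnmb no longer passed without X56 or without X136, and Cd68 without any 1 of 8 libraries.

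Of 12 alveolar macrophage genes 1 was called higher and 1 lower (background 1.97% and 0.822%), with a median log2FC of 0.08. The scavenger receptor gene Marco had 23.6, 36.2 and 53.7 CPM in AIR.DEX and 81.05, 125.9 and 152.8 CPM in CS.DEX (log2FC 1.73 ± 0.29, adjusted p = 1.01e-06), without overlap. Fabp1, a fatty acid binding protein gene, had 0.639, 2.83 and 6.49 CPM in AIR.DEX and 0.227, 0.64 and 1.03 CPM in CS.DEX (log2FC -1.92 ± 0.50, adjusted p = 0.00269). Siglecf, a surface lectin of resident alveolar macrophages and eosinophils, did not pass (log2FC -0.30, adjusted p = 0.374). Retnla, a secreted product of alternatively activated macrophages, rose from 41.7, 68.05 and 112.2 CPM to 219, 542 and 725 CPM (log2FC 2.83 ± 0.30, adjusted p = 2.9e-14) and was the 1 call among 15 genes of eosinophils and type 2 responses.

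Several chemokines for neutrophils were higher, most of all outside the middle code range. Of 11 tested neutrophil chemokine and growth factor genes 4 were called higher and none lower, 6 passed with a positive and 1 with a negative log2FC, and the median log2FC was 0.84 (0.89 without 1 member at the floor of 3 counts). Cxcl5 had 7.47, 9.71 and 15.9 CPM in AIR.DEX and 14.1, 120 and 280 CPM in CS.DEX (log2FC 3.04 ± 0.48, adjusted p = 2.81e-07). Cxcl1 had 9.11, 13.6 and 33.7 CPM in AIR.DEX and 30.7, 70.05 and 107.1 CPM in CS.DEX (log2FC 2.11 ± 0.29, adjusted p = 2.24e-09). For each of them 9 of 10 smoke libraries lay above every air library. Cxcl2 and Cxcl3, close copies of Cxcl1 and so uncertain, had log2FC values of 2.29 ± 0.33 and 2.34 ± 0.55.

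Over the code ranges, the smoke libraries of Cxcl5 ran from 116.8 to 121.2 CPM up to X60, from 14.1 to 29.1 CPM from X61 to X120 and from 136.4 to 280 CPM above X120. Its log2FC within the ranges was 3.42, 0.77 and 4.41, that of Cxcl1 was 2.58, 0.58 and 2.92, that of Cxcl2 was 2.64, 0.66 and 3.32 and that of Cxcl3 was 2.97, 0.39 and 3.47. All 4 genes were thus least raised in the range in which Cyp1a1 was not raised. Csf2 and Csf1, growth factors of granulocytes and macrophages, had log2FC values of 0.94 ± 0.19 (adjusted p = 1.01e-04) and 0.84 ± 0.12 (adjusted p = 6.18e-09). Cxcl15, a chemokine made constitutively by lung epithelium, did not pass (log2FC 0.20, adjusted p = 0.585).

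The genes Cxcl1, Cxcl2 and Cxcl3 lie on chromosome 5 and rose together, and their promoters are shown because the NF-kB letters GGNNTTTCC, infrequent in promoters, are in all 3. The 250 bases before each start are given from RefSeq on GRCm38.p6, all on the plus strand, with the matches on either strand in capitals, for the windows chr5:90890995-90891244, chr5:90903649-90903898 and chr5:90785851-90786100.
Cxcl1: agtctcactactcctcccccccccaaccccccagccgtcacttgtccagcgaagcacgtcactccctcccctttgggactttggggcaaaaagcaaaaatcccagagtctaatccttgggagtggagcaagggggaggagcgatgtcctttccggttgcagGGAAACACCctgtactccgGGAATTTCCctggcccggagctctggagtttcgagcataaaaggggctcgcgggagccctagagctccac
Cxcl2: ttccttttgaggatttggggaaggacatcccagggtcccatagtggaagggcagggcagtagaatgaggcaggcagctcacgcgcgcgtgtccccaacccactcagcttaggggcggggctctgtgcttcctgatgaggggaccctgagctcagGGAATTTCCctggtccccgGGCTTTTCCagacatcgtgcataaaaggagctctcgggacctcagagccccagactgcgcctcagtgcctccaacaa
Cxcl3: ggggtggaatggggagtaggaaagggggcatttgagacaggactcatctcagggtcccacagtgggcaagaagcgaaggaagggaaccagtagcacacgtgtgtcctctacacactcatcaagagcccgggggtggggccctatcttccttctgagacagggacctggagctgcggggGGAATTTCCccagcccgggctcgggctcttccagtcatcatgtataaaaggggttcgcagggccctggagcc
The letters occur 2 times before Cxcl1 and Cxcl2 and 1 time before Cxcl3. They were found in 4 of the 10 genes of the neutrophil list that had a window and in 4 of 11 such acute phase genes. Their share of all windows was 4.93%. These are unlike measures, since a gene counted if any of its windows matched, as Cp did by only 1 of its windows. The close copies Cxcl1, Cxcl2 and Cxcl3 are 3 of the 4 neutrophil genes and are not independent matches. The counts are a description only. Cxcl5 had no window and was not searched, while Il17c, too low to be tested for expression, was. No match in the others says only that these letters are not in this window.

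Cxcr2, a chemokine receptor of neutrophils, did not pass (log2FC 0.43, adjusted p = 0.169). Cxcr1 had 32.2, 40.1 and 44.8 CPM in AIR.DEX and 8.38, 24.3 and 41.1 CPM in CS.DEX (log2FC -0.75 ± 0.28, adjusted p = 0.0434), a call that was lost with edgeR (adjusted p = 0.219) and without any 1 of 11 libraries. Of 11 granule and alarmin genes 2 were called higher and none lower (background 1.97% and 0.822%), the collagenase gene Mmp8 (log2FC 1.40) and the cathelicidin gene Camp (1.05), and the alarmin gene S100a9 did not pass (log2FC -0.08, adjusted p = 0.908).

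Most chemokines for monocytes were upregulated, with a positive log2FC for each called gene in all 3 code ranges. Of 15 monocyte chemokine and receptor genes 8 were called higher and none lower, 10 passed with a positive log2FC, and the median log2FC was 1.05. Ccl2 had 1.76, 3.09 and 4.36 CPM in AIR.DEX and 10.6, 15.4 and 38.8 CPM in CS.DEX (log2FC 2.49 ± 0.32, adjusted p = 2.37e-10), with 2.47, 2.14 and 2.78 in the 3 ranges. Ccl9 had 25.9, 34.6 and 80.5 CPM in AIR.DEX and 95.3, 127.6 and 167.1 CPM in CS.DEX (log2FC 1.65 ± 0.20, adjusted p = 1.43e-11). Neither gene overlapped between the groups. Ccl3 (log2FC 1.86), Ccl7 (1.84), Ccl4 (1.79), Ccl22 (1.42), the receptor Ccr1 (1.10) and Ccl17 (1.05) were the other calls, and the receptor Cx3cr1 (0.99) passed just below the limit on log2FC. Ccl7 reached 16.98 CPM in X116 and at most 5.45 CPM in the other smoke libraries, and its log2FC was 1.63 without X116. Ccl6, abundant in both groups, did not pass (log2FC 0.10, adjusted p = 0.821).

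Of 13 lymphoid chemokine genes 1 was called higher and 1 lower (background 1.97% and 0.822%). Ccl20, which attracts cells bearing CCR6, rose from 1.42, 2.12 and 7.94 CPM to 4.60, 11.3 and 20.1 CPM (log2FC 2.18 ± 0.36, adjusted p = 8.54e-07), and Cxcr5, the receptor that takes B cells into follicles, had a log2FC of -1.58 ± 0.52 (adjusted p = 0.0209), which no longer passed without X88, X176 or X196.

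Among matrix proteases and inhibitors 5 of 15 were called higher and none lower, and 7 passed with a positive and 1 with a negative log2FC (median 0.41). Besides Mmp12 and Mmp8 these were Adam8, a membrane protease of leukocytes (log2FC 1.83 ± 0.24, 7.49 to 12.6 CPM in AIR.DEX and 27 to 46.6 CPM in CS.DEX), the collagenase gene Mmp13 (1.6 ± 0.41) and the inhibitor gene Timp1 (1.57 ± 0.40). Timp1 reached 160 CPM in X116 and at most 29.9 CPM in the other smoke libraries, and its log2FC was 1.26 without X116. Mmp19 (0.88) and Mmp14 (0.58) rose by less without overlap, and Mmp3, stromelysin, fell by 0.71 on the log2 scale (adjusted p = 0.0281), a call lost without any 1 of 5 libraries.

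In the IL-1 family both calls were inhibitors of the pathway. Il1rn, the receptor antagonist, had 10.2, 12.4 and 25.3 CPM in AIR.DEX and 25.5, 40.99 and 75.6 CPM in CS.DEX (log2FC 1.70 ± 0.26, adjusted p = 1.41e-07). Il1r2, the decoy receptor, had a log2FC of 1.82 ± 0.30 (adjusted p = 1.16e-06) and Nlrp3, the inflammasome sensor, of 0.90 ± 0.21 (adjusted p = 9.32e-04). Il1b did not pass (log2FC 0.31, adjusted p = 0.474), and Il18 had 31.1, 40.2 and 50.8 CPM in AIR.DEX and 16.9, 26.8 and 37.6 CPM in CS.DEX (log2FC -0.61 ± 0.18, adjusted p = 0.0103). These are 2 calls among 10 tested members.

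Iron handling genes had 3 calls among 14, all higher, with a median log2FC of 0.26. Steap4, a metalloreductase on chromosome 5, had 38.2, 49.6 and 57.6 CPM in AIR.DEX and 136.1, 185.6 and 271 CPM in CS.DEX (log2FC 1.92 ± 0.14, adjusted p = 3.03e-24). The phagosomal metal transporter gene Slc11a1 rose by 1.62 ± 0.21 (adjusted p = 3.73e-10), and Lcn2 belongs here too. Slc11a2, the importer of ferrous iron in most cells, had a log2FC of 0.55 ± 0.08 (adjusted p = 2.01e-08), and for all 4 genes the groups did not overlap.

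Several cytotoxic lymphocyte genes were lower after smoke. Of 14 T and NK cell genes 5 were called lower and none higher, 6 passed with a negative log2FC, and the median log2FC was -0.71. Ncr1, an activating receptor of NK cells, had 1.71, 7.45 and 15.3 CPM in AIR.DEX and 0, 1.02 and 6.09 CPM in CS.DEX (log2FC -2.85 ± 0.51, adjusted p = 6.79e-06). Gzma, granzyme A, had 6.83, 21.98 and 53.6 CPM in AIR.DEX and 0.728, 2.78 and 16.4 CPM in CS.DEX (log2FC -2.73 ± 0.48, adjusted p = 6.16e-06). Both overlapped, with 7 of 10 smoke libraries below every air library. Perforin, Prf1 (log2FC -1.94), granzyme B, Gzmb (-1.71), and Nkg7 (-1.58) were the other calls, and Klrb1c, the NK1.1 antigen gene, passed at -0.81. Cd3e, of the T cell receptor complex, did not pass (log2FC -0.09, adjusted p = 0.918), and its direction turned without X176 (log2FC 0.04).

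The overlap between the groups followed the code ranges. Ncr1 had 5.19 to 8.62, 12.2 to 15.3 and 1.71 to 8.31 CPM in the air libraries of the 3 ranges and 0.214 to 1.63, 3.56 to 6.09 and 0 to 0.667 CPM in the smoke libraries. Within each range all smoke libraries lay below all air libraries, and the log2FC was -2.99, -1.62 and -3.88. Gzma likewise did not overlap within a range, with log2FC values of -3.13, -1.97 and -3.20.

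Several B cell genes were lower too, less firmly. Of 18 B cell and plasma cell genes 5 were called lower and 2 higher, with a median log2FC of -0.49 (-0.61 without 1 member at the floor). Ighd, the IgD heavy chain gene, had a log2FC of -2.21 ± 0.68 (adjusted p = 0.0125), the transcription factor Pax5 of -1.82 ± 0.55 (adjusted p = 0.0108), the surface gene Ms4a1 of -1.56 ± 0.55 (adjusted p = 0.0346) and Cd79a of the B cell receptor of -1.46 ± 0.46 (adjusted p = 0.0162). Cd79a had 2.17, 13.9 and 30.04 CPM in AIR.DEX and 0.575, 4.46 and 15.3 CPM in CS.DEX, so that the groups overlapped widely. In a fit of the 20 libraries alone 1 of the 5 was called lower, without X176 2 were, and under a filter at 10 CPM in 9 libraries none was. Within the code ranges Pax5 had 0.99 to 1.88, 2.90 to 3.83 and 0.15 to 1.36 CPM in the air libraries and 0.171 to 0.686, 1.26 to 1.73 and 0 to 0.264 CPM in the smoke libraries.

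The 2 calls in the other direction were Igha, given above, and Fcer2a, the low-affinity IgE receptor CD23. Fcer2a had 2.14, 6.76 and 13.7 CPM in AIR.DEX and 14.98, 29.6 and 39.1 CPM in CS.DEX (log2FC 2.11 ± 0.33, adjusted p = 2.56e-07), without overlap. It thus rose while 5 of the 18 listed genes were called lower and 10 did not pass.

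Cell cycle genes rose together. Of 13 members 10 were called higher and none lower, 12 passed with a positive log2FC, and the median log2FC was 1.26. Mki67, the proliferation antigen, had 7.99, 10.2 and 14.5 CPM in AIR.DEX and 17.8, 29.7 and 58.7 CPM in CS.DEX (log2FC 1.55 ± 0.25, adjusted p = 9.4e-07), without overlap. Ccnb1, cyclin B1, rose by 1.46 ± 0.30 (adjusted p = 1.32e-04), Ccna2, cyclin A2, by 1.46 ± 0.28 (adjusted p = 2.71e-05) and Top2a, which untangles replicated DNA, by 1.28 ± 0.28 (adjusted p = 2.3e-04). The mitotic genes Birc5, Plk1 and Aurkb had log2FC values of 1.32, 1.27 and 1.23, and Rrm2, which makes deoxynucleotides, of 1.24. X116 held the highest values, with 36.2 CPM for Rrm2 against at most 12.1 CPM in the other smoke libraries and 52.8 against 25.7 CPM for Top2a. Without it 8 of the 13 were called, and the log2FC was 1.44 for Mki67 and 1.00 for Rrm2.

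Genes of the glucocorticoid receptor and its targets, which every mouse here was exposed to through DEX, had no call among 18, and 3 passed in each direction (median log2FC 0.00). The receptor gene Nr3c1 had 210, 234 and 281 CPM in AIR.DEX and 169.4, 192.7 and 226 CPM in CS.DEX (log2FC -0.28 ± 0.07, adjusted p = 0.00161). Fkbp5, a chaperone partner that the receptor induces, had 19.5, 23.9 and 54.3 CPM in AIR.DEX and 34.5, 42.95 and 81.8 CPM in CS.DEX (log2FC 0.77 ± 0.22, adjusted p = 0.00514). Dusp1, a phosphatase that shuts off MAP kinases, had 110, 128.7 and 178.5 CPM in AIR.DEX and 62.7, 84.99 and 133.4 CPM in CS.DEX (log2FC -0.59 ± 0.13, adjusted p = 3.05e-04). All 3 overlapped between the groups. Mt2 (log2FC 0.75), Ddit4 (0.53) and the cortisone-activating enzyme gene Hsd11b1 (-0.38) were the other passes, of which Mt2 was lost without any 1 of 9 libraries and Hsd11b1 without any 1 of 6. Tsc22d3, the leucine zipper gene GILZ, did not pass (log2FC -0.08, adjusted p = 0.872). Its air libraries ran from 95.2 to 96.5 CPM up to X60, from 82.7 to 85.2 CPM from X61 to X120 and from 128.5 to 358 CPM above X120, and the smoke libraries spread in the same way. Per1, a target and a clock gene, did not pass either (log2FC 0.49, adjusted p = 0.328), and none of 14 circadian clock genes did.

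No gene of the surfactant and type II, type I, matrix or alveolar fibroblast lists was called, and the share of passes differed between them (9.32% of all genes passed with a positive and 8.93% with a negative log2FC). Among 11 surfactant and type II genes Sftpd, surfactant protein D (log2FC 0.63 ± 0.16, adjusted p = 0.0013), and Abca3, the surfactant lipid pump (0.42 ± 0.11, adjusted p = 0.00334), passed. None of 9 type I genes passed. Sftpc (log2FC -0.35) and Ager (-0.23) did not pass but did in fits of parenchyma libraries only (adjusted p = 0.0138 and 0.0229). Of 16 collagen and matrix genes 6 passed with a positive and 1 with a negative log2FC (median 0.34). Fibronectin, Fn1, rose by 0.68 ± 0.12 (adjusted p = 8.11e-06), Col6a1 by 0.60 ± 0.10 (adjusted p = 1.98e-06) and Col1a1 by 0.58 ± 0.17 (adjusted p = 0.00956), while periostin, Postn, was lower without overlap (log2FC -0.74 ± 0.12, adjusted p = 1.96e-07). Among 8 alveolar fibroblast genes Wnt2 (-0.55) and Inmt (-0.50) passed, though Inmt did not without X116 (adjusted p = 0.0756).

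Of 12 endothelial genes 1 was called higher and 4 passed with a negative log2FC (median -0.27). Ackr1, the chemokine-binding receptor of venules, had 0.0799, 0.441 and 0.841 CPM in AIR.DEX and 1.18, 2.20 and 6.91 CPM in CS.DEX (log2FC 2.55 ± 0.46, adjusted p = 8.24e-06). Gpihbp1, which anchors lipoprotein lipase to capillaries, had 111.8, 142.5 and 161.4 CPM in AIR.DEX and 64.9, 81.3 and 106.8 CPM in CS.DEX (log2FC -0.73 ± 0.18, adjusted p = 0.00136). The groups did not overlap for either gene. Apln (-0.59), its receptor gene Aplnr (-0.58) and the endothelin receptor gene Ednrb (-0.51) were the other falls, of which Ednrb was lost without X116 (adjusted p = 0.0502). Type I interferon and MHC class II genes had no call among 12 and 7, and Ifit3 (log2FC 0.44, adjusted p = 0.0275) and Cd74 (0.40, adjusted p = 0.0185) were the 1 pass in each. Ifit3 no longer passed without X68 or without X76, nor did Cd74 without X116. Of 16 genes of cholesterol and fatty acid synthesis none was called.

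Lists of cells that dissection could leave behind were examined as well. Among 5 club cell genes Scgb3a1 was called higher (log2FC 1.03 ± 0.28, adjusted p = 0.00446) and Cyp2f2 passed with -0.33 (adjusted p = 0.0419). Neither passed with DESeq2 (adjusted p = 0.066 and 0.0534) or without a filter (adjusted p = 0.0583 and 0.0838). Cyp2f2 was also lost with edgeR (adjusted p = 0.0549) and when single libraries were left out, as without X176 (adjusted p = 0.132). The summed level of the list was 22555 to 44499 CPM in AIR.DEX and 13185 to 37495 CPM in CS.DEX. No gene of the smooth muscle, cardiac muscle, skeletal muscle, fat, thymocyte, red cell or cartilage lists passed, and 1 of 7 ciliated cell genes passed with a positive log2FC. Red cell genes summed to 850 to 5018 CPM in AIR.DEX and 1179 to 2892 CPM in CS.DEX. The part of any of these in the results above was not tested.

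**Figure D2:**
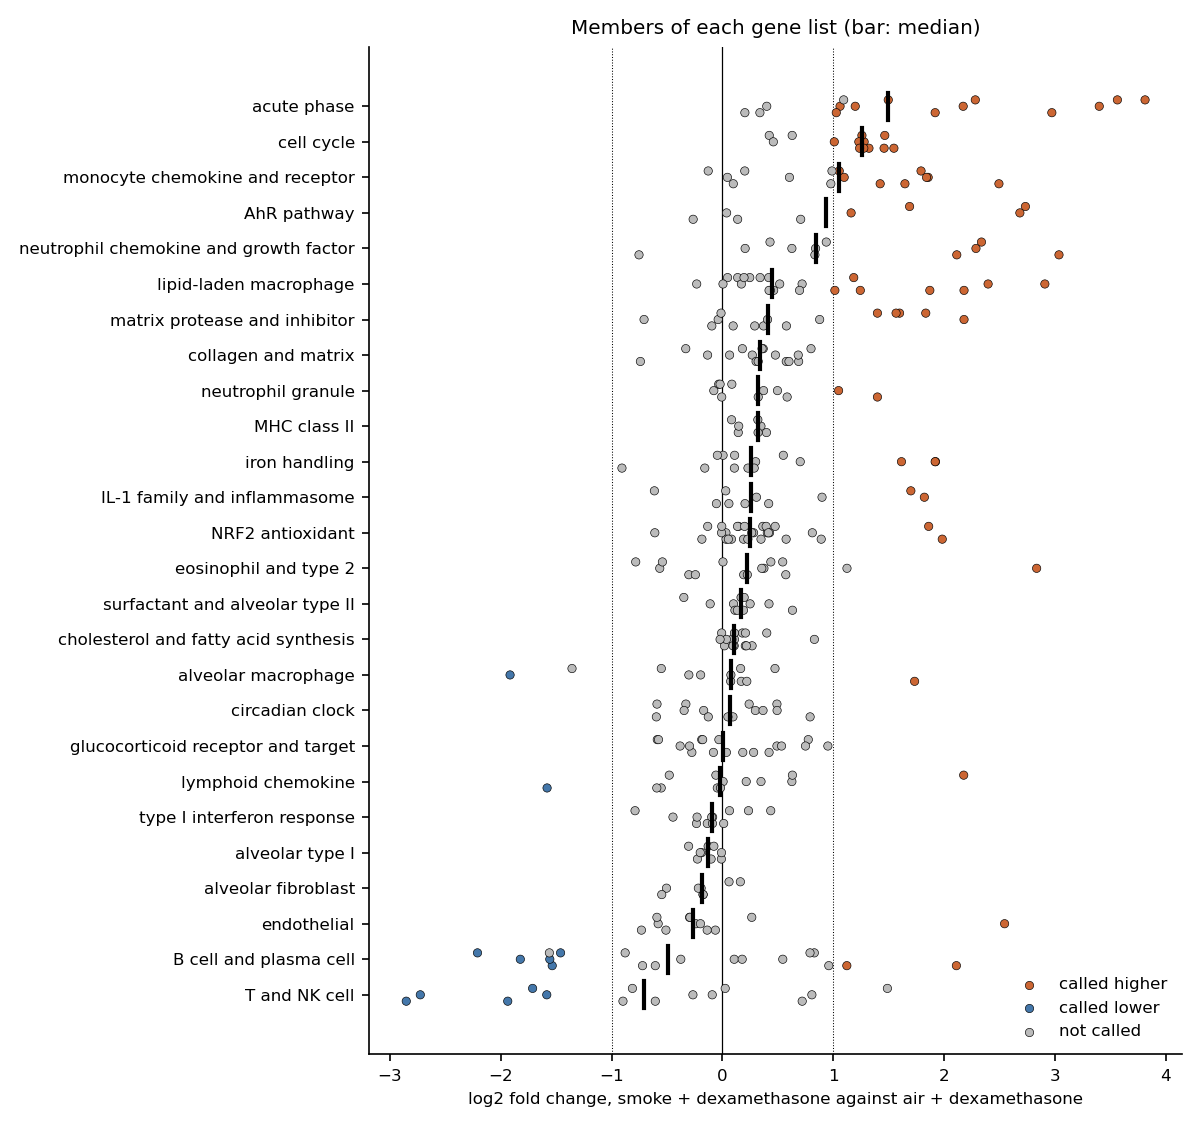
Each point is a tested member of a list, placed by its log2FC of CS.DEX against AIR.DEX, in orange where called higher, in blue where called lower and in grey otherwise, with a bar at the median and dotted lines at the limits of -1 and 1. Medians run from 1.5 for acute phase genes to -0.71 for T and NK cell genes, and the B cell list has calls on both sides.

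The 20 libraries fall into 3 ranges of codes, with 3 libraries per group up to X60, 3 per group from X61 to X120 and 4 per group above X120. This split was made after the values were seen. Within the ranges 1.05%, 1.68% and 0.91% of all genes were upregulated and 0.373%, 0.647% and 0.389% downregulated. Of the 360 upregulated genes, 358, 358 and 360 had a positive log2FC in the 3 ranges, and of the 150 downregulated genes all but 1, above X120, had a negative one in each. These shares describe the direction only, since the genes were called in the same libraries. Cyp1a1 was one of the 2 upregulated genes with a negative value from X61 to X120.

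**Figure D3:**
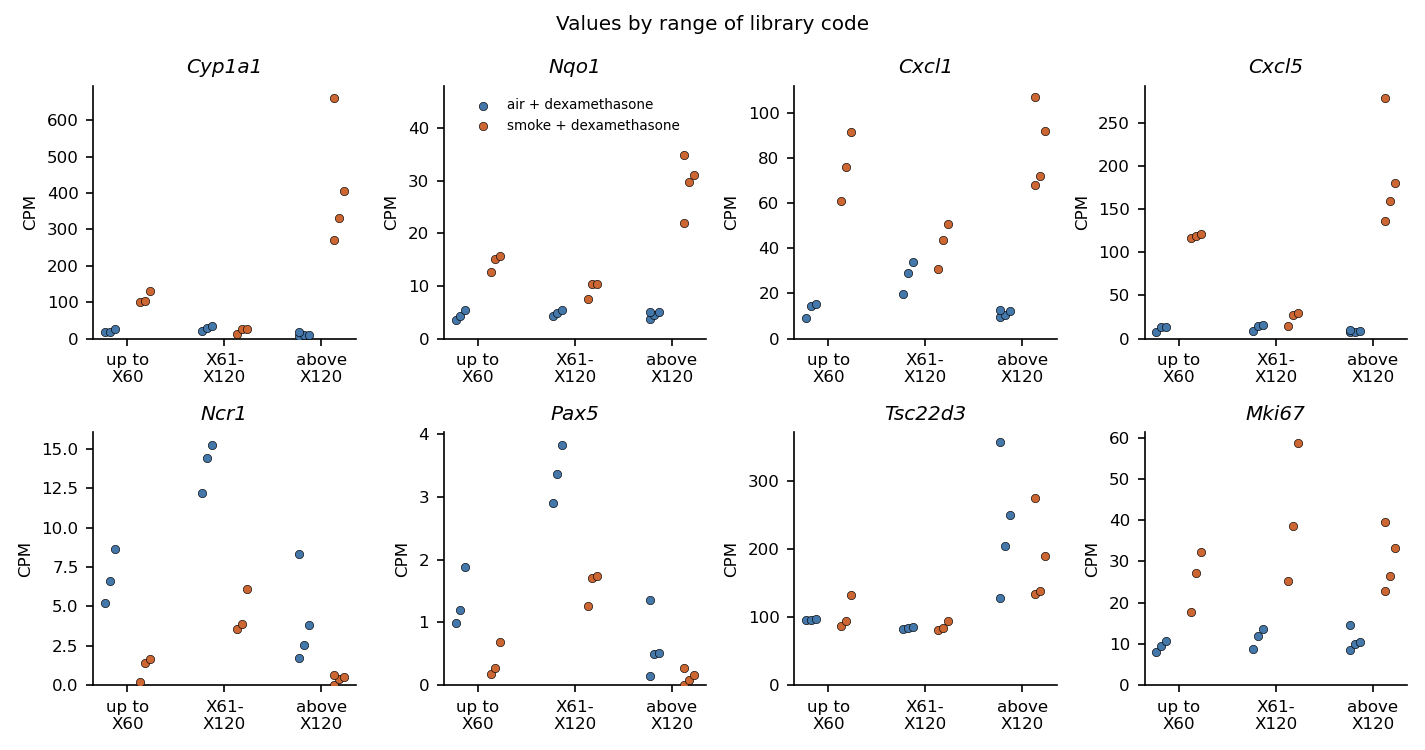
Points are single libraries with TMM-scaled CPM on linear axes from 0, split by range of library code, AIR.DEX in blue and CS.DEX in orange. Cyp1a1 and Cxcl5 are high in the smoke libraries up to X60 and above X120 and not in those between (12.5 to 27 and 14.1 to 29.1 CPM), while for Mki67 the smoke libraries lie above the air libraries in all 3.

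Whether the smoke effect differed with DEX was asked with the 20 parenchyma libraries labelled PBS.CS and PBS.AIR, which had no DEX, by testing the difference of the log2FC values in the same fit. The 4 groups share no libraries. The difference passed for 588 of 18250 genes (3.22%), with a lower log2FC under DEX for 2.25% and a higher one for 0.97%. The 360 genes upregulated with DEX had a median log2FC of 1.44 with it and 1.63 without, and 29 of them (8.06%) passed, all with the smaller rise under DEX. For the 150 downregulated genes the medians were -1.44 and -0.99, and 2 passed. Since those genes were chosen by their values with DEX, these medians are descriptions.

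Macrophage genes were among the differences. In the lipid-laden macrophage list 12 of 22 members passed, and the median log2FC was 0.45 with DEX and 1.63 without. For Gpnmb the log2FC was 0.72 with DEX and 3.24 without, a difference of -2.52 ± 0.34 (adjusted p = 2.86e-08). Its levels were 27.7, 36.5 and 88.9 CPM in AIR and 236, 367 and 464 CPM in CS, so that the smoke groups overlapped with and without DEX while the air group with DEX, at 204.5 to 300 CPM, lay above the air group without it. Ctsk showed the same order, with 57.8 to 152.9 CPM in AIR, 206 to 430 CPM in AIR.DEX, 388 to 696 CPM in CS and 231 to 682 CPM in CS.DEX (difference -2.27 ± 0.30, adjusted p = 2.86e-08).

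Cd68 (difference -1.58 ± 0.24, adjusted p = 7.36e-07) and Trem2 (-1.39 ± 0.32, adjusted p = 0.00288) were further members. Ccl6, a monocyte chemokine, had 262, 380 and 611 CPM in AIR and 1468, 1803 and 3473 CPM in CS, against a log2FC of 0.10 with DEX (difference -2.24 ± 0.30, adjusted p = 2.86e-08). Plet1, a surface protein gene, had a difference of -1.40 ± 0.18 (adjusted p = 7.48e-09), the smallest p-value of this comparison among genes with a lower log2FC. Trim29 had -1.64 ± 0.22 (adjusted p = 2.86e-08). In each of these the AIR.DEX median was above that of AIR.

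Genes of neutrophils, cytokines and the acute phase were among the differences too. Cxcr1 had 1.78, 2.12 and 3.95 CPM in AIR and 18.2, 22.2 and 25.2 CPM in CS, a log2FC of 3.28 without DEX against -0.75 with it (difference -4.03 ± 0.58, adjusted p = 1.97e-07). Il18 had a log2FC of 0.92 without and -0.61 with DEX (difference -1.54 ± 0.26, adjusted p = 2.07e-05). Both therefore had opposite signs with and without DEX, but the fall of Cxcr1 with DEX was not firm and did not pass with edgeR (adjusted p = 0.219). Cxcl1 kept its direction with a smaller log2FC (4.08 without DEX, difference -1.97 ± 0.49, adjusted p = 0.00762), and so did Lcn2 (3.69, difference -1.77 ± 0.35, adjusted p = 2.49e-04), Ccl9 (2.77, difference -1.13 ± 0.28, adjusted p = 0.008), Steap4 (2.94, difference -1.02 ± 0.20, adjusted p = 3.51e-04) and Pigr (3.21, difference -0.83 ± 0.19, adjusted p = 0.00309). For Lcn2 the smoke groups reached 706 to 1759 CPM without and 1013 to 1716 CPM with DEX, and the air groups 41.8 to 273 and 215 to 517 CPM.

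Fn1 went the other way. It had 228, 300 and 331 CPM in AIR and 153.7, 279 and 363 CPM in CS, and 124.2, 158.5 and 192.99 CPM in AIR.DEX against 200, 248 and 322 CPM in CS.DEX, so that its log2FC was -0.15 without and 0.68 with DEX (difference 0.83 ± 0.18, adjusted p = 9.96e-04). Several lists held no gene that passed this test, among them NRF2 antioxidant, T and NK cell, B cell and plasma cell and cell cycle genes. Their median log2FC values without DEX were 0.37, -0.51, -0.06 and 0.81, beside 0.25, -0.71, -0.49 and 1.26 with it. A difference that missed the threshold does not show that these effects were equal.

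**Figure D4:**
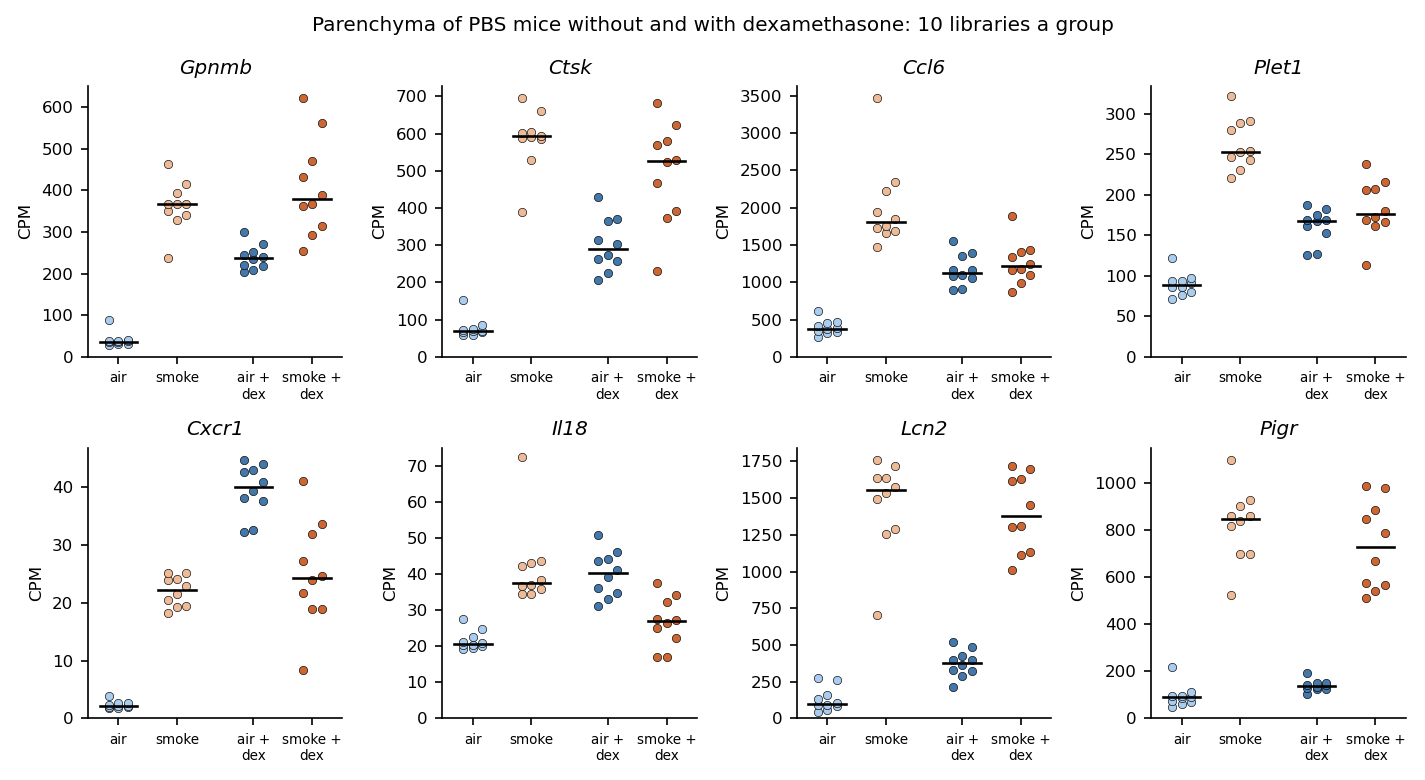
Points are single parenchyma libraries of PBS mice, with TMM-scaled CPM on linear axes from 0, for air and smoke without DEX (pale) and with DEX (dark), and bars at the medians of 10 libraries. For Gpnmb, Ctsk, Ccl6 and Plet1 the air group with DEX lies above the air group without it, and for Cxcr1 and Il18 the median of the smoke group is above that of air without DEX and below it with DEX.

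In the airway tissue of mice with the same labels, 12 of 18250 genes (0.0658%) had a log2FC that differed from that of the parenchyma (0.0603% with a higher and 0.00548% with a lower value in parenchyma), 1119 had an unadjusted p-value under 0.05, and edgeR gave 35 and DESeq2 51. The libraries were treated as independent, since the labels do not pair them. Airway and parenchyma libraries of these groups have adjacent codes, but whether adjacent codes mark the same mouse is not given. Pigr had 272, 377 and 672 CPM in AIR.DEX airways and 564, 783 and 918 CPM in CS.DEX airways, a log2FC of 0.90 against 2.38 in parenchyma (difference 1.48 ± 0.20, adjusted p = 2.22e-07). Steap4 differed by 1.24 ± 0.20 (adjusted p = 3.93e-05), Lemd1 by 2.26 ± 0.39 (adjusted p = 2.15e-04), Cfb by 1.42 ± 0.27 and C3 by 0.82 ± 0.16 (both adjusted p = 0.00205). For these genes the air-exposed airways lay at higher levels than the air-exposed parenchyma in the median, as with C3 at 786 against 400 CPM. Avpr1a, lower after smoke in parenchyma, had 1.47, 2.29 and 2.98 CPM in AIR.DEX airways and 0.308, 1.88 and 2.81 CPM in CS.DEX airways (difference -2.56 ± 0.54, adjusted p = 0.00705).

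In parenchyma of mice that had received HDM along with DEX, smoke had another effect on 2140 genes (11.7%), with a higher log2FC in PBS mice for 6.53% and a lower one for 5.2%. Of the 360 upregulated genes 45% passed, all with the larger rise in PBS mice, and their median log2FC was 0.45 in HDM mice. Since those genes were chosen by their rise in PBS mice, which favours this direction, the share and the median are descriptions. Lemd1 had 6.39 to 16.1 CPM in air-exposed and 9.44 to 13.2 CPM in smoke-exposed HDM mice (difference 4.45 ± 0.34, adjusted p = 4.41e-22). Pigr had 1059, 1603 and 2123 CPM in air-exposed and 620, 1094 and 1333 CPM in smoke-exposed HDM mice, a log2FC of -0.52 (difference 2.90 ± 0.21, adjusted p = 3.19e-24). Both genes were thus already high in HDM mice without smoke.

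Vnn1 (difference 3.24 ± 0.31, adjusted p = 1.07e-15), the amino acid transporter gene Slc6a20a (2.39 ± 0.22, adjusted p = 2.78e-17), Cfb (2.35 ± 0.28, adjusted p = 1.29e-10) and Slc7a11 (2.35 ± 0.35, adjusted p = 1.12e-07) did not pass for smoke in HDM mice. The inhibitory Fc receptor gene Fcgr2b rose in PBS mice (log2FC 1.07 ± 0.10) and was lower after smoke in HDM mice (-0.45, difference 1.51 ± 0.14, adjusted p = 4.9e-16). Mmp12 had 380, 1235 and 2374 CPM in air-exposed and 218, 503 and 874 CPM in smoke-exposed HDM mice, a log2FC of -1.15 against 2.18 (difference 3.33 ± 0.39, adjusted p = 2.46e-11), and Igha had -1.58 against 1.12 (difference 2.70 ± 0.41, adjusted p = 2.6e-07). AhR targets rose in HDM mice as well, with a log2FC of 1.05 ± 0.18 for Cyp1b1 and 0.96 ± 0.15 for Ugt1a6a, and neither differed between HDM and PBS mice at the threshold (differences 0.64 ± 0.27 and 0.21 ± 0.20, adjusted p = 0.119 and 0.594). All 7 MHC class II genes differed, with a median log2FC of 0.32 in PBS and -0.63 in HDM mice.

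**Figure D5:**
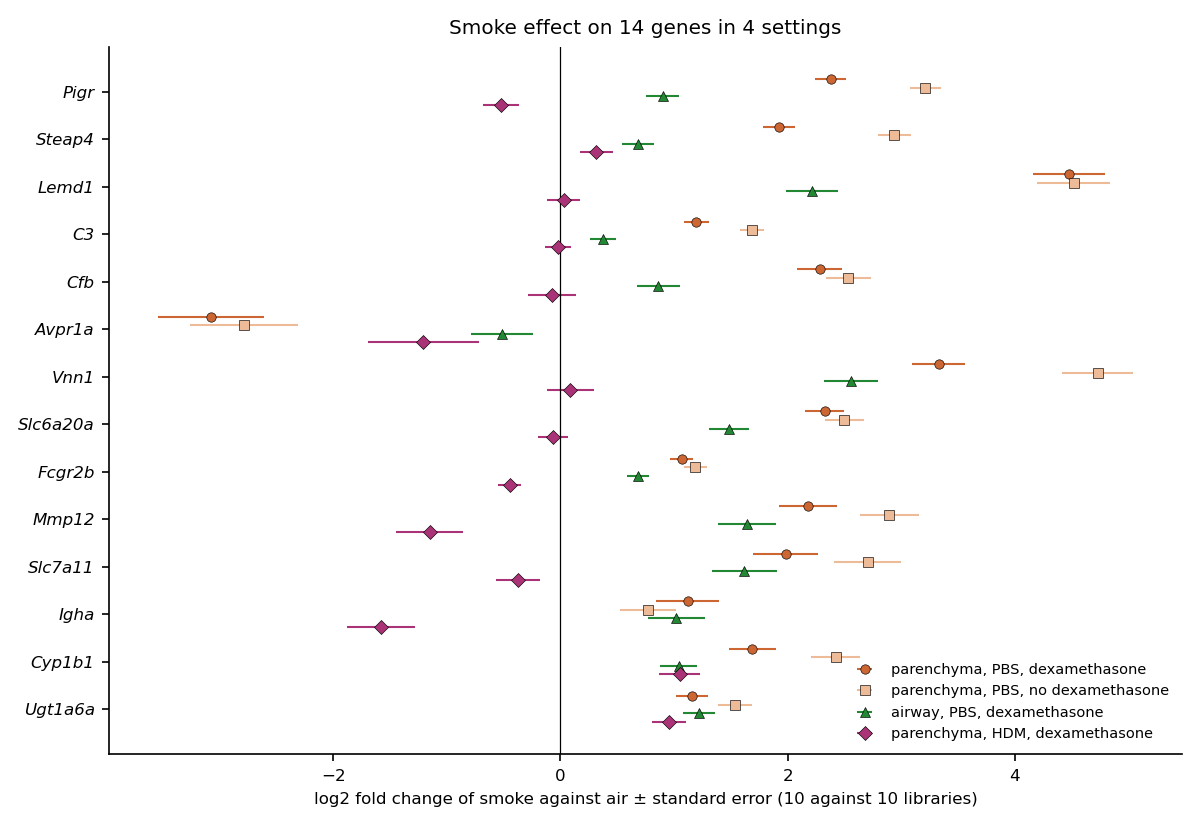
Points give the log2FC of smoke against air with its standard error, 10 against 10 libraries each, for 14 genes in parenchyma of PBS mice with DEX (circles) and without DEX (squares), in airways with DEX (triangles) and in parenchyma of HDM mice with DEX (diamonds). Pigr runs from 3.21 without DEX to -0.52 in HDM mice, and Cyp1b1 and Ugt1a6a are above 0 in all 4 settings.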

How the data were processed

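RNA was sequenced from blunt-dissected airway and parenchyma, with reads of 100 bases per the labels. The authors deposited 1 table of estimated counts per gene for 203 libraries, not normalized. The submitters' processing notes name STAR 2.5.1b, RSEM 1.2.31, kallisto 0.44.0 and mm10. Which of RSEM and kallisto made the table, and whether strand was used, is not given in the sources used here. Among values above 0, 20.3% had a fraction (tolerance 1e-06), and each value was rounded. Of 43346 identifiers 42462 were matched to GENCODE M21 for symbols and positions, without their version.

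Genes were kept where 9 or more libraries had the CPM that 10 counts make in the median library. The 160 libraries of 16 groups at 11 weeks entered 1 limma-voom fit (limma 3.58.1, R 4.3.3) with TMM factors (edgeR 4.0.16) and 1 mean per group. P-values were adjusted by Benjamini-Hochberg over all genes. Called genes had an adjusted p under 0.05 and a log2FC no smaller in size than 1, and genes with that p alone passed. Differences between smoke effects were contrasts of the same fit. The method was tested on simulated data of the 20 libraries of the 2 groups only. The fit of 160 libraries and the differences between smoke effects were not tested in this way. No pair of libraries in a group agreed within sampling noise. Summaries used pandas 2.3.3 and scipy 1.17.1, and figures matplotlib 3.10.9. The intervals of count ratios are exact 95% binomial ones and cover counting error only.

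The rule named the 10 largest rises and falls without overlap, the first 3 members of each of 35 lists, up to 5 called members of each, and the 5 smallest p-values in each direction of each difference. Other named genes were chosen after their values were seen. Some genes of the lists are not reported here. The members and lists were chosen with earlier results of these data known. The alternatives were DESeq2 1.42.0, its size factors, the quasi-likelihood test of edgeR, 2 other filters, other sets of libraries, limma's treat, and leaving out each library. Fits with library code ranges, without X126, and without each of 60 libraries of the other groups were added after seeing the data.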

Additional observations from a re-analysis of the deposited data

Results flagged for a closer look

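Single libraries far from the rest of their group were looked for in 306 groups of 10 libraries, and 23 were found (7.52%). Chance alone gives about 1 in 20 for independent, normally distributed values. The sets share the same libraries and many of the genes were chosen with their values known, so 7.52% cannot be judged against that rate. Values are log2 CPM. Library X116 of CS.DEX stood apart with high values of Saa3 (8.61), Ccl7 (4.09), Timp1 (7.32), Rrm2 (5.18) and Plk1 (2.53) and low values of Asgr1 (-1.71), Plet1 (6.82) and Cxcr1 (3.07). Library X176 of CS.DEX stood apart for Slc7a11 (3.54), Jchain (3.62), Ccl22 (1.66) and Cd36 (10.54). Other CS.DEX libraries did so for Gsta2 (X136, 2.44), Postn (X56, 6.66), Apln (X56, 3.97) and Ifit3 (X76, 6.70). Among AIR.DEX libraries it was X108 for Mmp12 (5.58), Ccl20 (2.99) and Trim29 (3.76), X168 for Ahr (6.58) and Ddit4 (5.13), X48 for Slc7a11 (3.02) and X8 for Dcstamp (-5.85).

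The log2FC of smoke under DEX differed from another smoke effect in 30 cases by limma's test of the difference, with the levels and p-values given above. Against smoke without DEX the difference was -4.03 for Cxcr1, -2.52 for Gpnmb, -2.27 for Ctsk, -2.24 for Ccl6, -1.97 for Cxcl1, -1.77 for Lcn2, -1.64 for Trim29, -1.58 for Cd68, -1.54 for Il18, -1.40 for Plet1, -1.39 for Trem2, -1.13 for Ccl9, -1.02 for Steap4, -0.83 for Pigr and 0.83 for Fn1. Against airway it was 2.26 for Lemd1, 1.48 for Pigr, 1.42 for Cfb, 1.24 for Steap4, 0.82 for C3 and -2.56 for Avpr1a. Against HDM mice it was 4.45 for Lemd1, 3.33 for Mmp12, 3.24 for Vnn1, 2.90 for Pigr, 2.70 for Igha, 2.39 for Slc6a20a, 2.35 for both Cfb and Slc7a11 and 1.51 for Fcgr2b.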

How the results depend on the processing

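Of the values of genes named in the text, 82% kept their direction and their side of the threshold in every alternative run for them. The treat test and the fits within code ranges are not part of this share. The negative value of Cyp1a1 from X61 to X120, given above, is therefore not counted in it. As shares of the genes tested, 1.97% were called higher and 0.822% lower, and 3.22% differed from smoke without DEX, 0.0658% from airway and 11.7% from HDM mice. With a filter at 10 CPM in 9 libraries fewer genes were tested, and 1.09% were called higher, 0.123% lower (89.9% of the calls higher against 70.6%) and 0.0492% differed from airway. The stricter treat test called 0.219% and 0.011% (95.2% higher). Within code ranges, with fewer libraries, 1.05% and 0.373% were called up to X60 and 0.91% and 0.389% above X120. The genes that differed from airway came to 0.192% with edgeR and 0.279% with DESeq2, and those that differed from smoke without DEX to 4.87% with DESeq2, for which the cause was not tested. Leaving out 1 library gave 1.72% (X116) to 2.19% (X176) higher, 0.712% (X176) to 0.997% (X76) lower, 2.05% (X173) to 4.26% (X6) that differed from smoke without DEX (2.13% without X176), 0.0658% to 0.0986% from airway and 9.88% to 13% from HDM mice. Outside the fits within code ranges, the direction turned, without passing, for S100a9, Cd3e and Tsc22d3. The log2FC of S100a9 was 0.047 with edgeR and 0.051 with DESeq2, and -0.20 to 0.12 when 1 library was left out. Leaving out 1 library gave -0.20 to 0.036 for Cd3e and -0.20 to 0.082 for Tsc22d3. Lemd1 no longer differed from airway with the CPM filter (adjusted p = 0.202), nor Cfb without a filter (adjusted p = 0.0524). In a limma-voom fit of the CS.DEX and AIR.DEX libraries alone, Hmox1, Cxcr5, Ms4a1, Cd79a and Pax5 no longer passed (adjusted p from 0.0617 to 0.0892). Cxcr2, Sftpc and Ager passed in that fit (adjusted p from 0.018 to 0.0451). No paired analysis was made. The labels give no replicate numbers, only a code unique to each library, and libraries were numbered within a group in accession order. The codes do run in repeating sets, each with 1 CS.DEX and 1 AIR.DEX parenchyma library. A block on these sets could have been fitted and was not, and what a set marks is not given. With the broader code ranges as a term, 2.05% were called higher and 0.899% lower, and 4.5% differed from smoke without DEX. Depth limits what can be shown for genes near 0, such as Saa4, with at most 1 count in any AIR.DEX library.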

Other observations

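At the floor of the counts, Saa4, an acute phase gene, had 1 to 18 counts per CS.DEX library (82 in all) and 0 to 1 per AIR.DEX library (1 in all), a ratio per total count of 81.3 (95% interval 14.2 to 3250). Erbb4, a neuregulin receptor gene, had 2 to 18 counts per AIR.DEX library (98 in all) and 0 to 2 per CS.DEX library (11 in all), a ratio of 8.98 (4.81 to 18.6). The summed level of the cell cycle list was 53.2 to 76.6 CPM in AIR.DEX (median 61.5) and 71.99 to 360 CPM in CS.DEX (median 120.7).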
